A study of Mus musculus with 5 samples.

Results

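The EGF family ligands and their ErbB receptors were followed in sorted mouse tracheal epithelium through 9 genes: the ligands Areg, Ereg, Hbegf, Tgfa, Epgn and Btc and the receptors Egfr, Erbb2 and Erbb3. They were found as the probe sets that the array's annotation assigns to 1 of these genes alone, which gave 19 of the 34945 probe sets with a single gene. These 19 belong to 8 of the 9 genes, out of 18193 genes with a probe set of their own, because the annotation used here assigns none to Areg, which was not analysed here. The basal group (2 arrays) held TROP-2+ITGA6+ cells from surface epithelium that had been freed with dispase, from the lower part of the trachea. The duct group (3 arrays) held TROP-2+ cells, with no ITGA6 gate, from the upper part after pronase had removed the surface epithelium. Both groups came from C57BL/6 mice of both sexes, 8 to 12 weeks old, and each array was made from its own pool of 10 to 15 mice. The enzyme, the stretch of trachea and the gate differed wherever the cell type did, so their effects cannot be told apart.

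EGF family ligands are made as membrane-bound precursors that proteases release, after which they bind ErbB receptors on the same or a neighbouring cell. Egfr binds all 6 of these ligands, Erbb2 has no known ligand and acts as the partner of the other receptors, and Erbb3, a receptor for neuregulins, has little kinase activity and signals through its partners. In airway and in stratified epithelia the system is known for its part in wound closure, proliferation and the choice between secretory and squamous fates. The genes Epgn, Ereg, Areg and Btc are 4 consecutive protein-coding genes in the mouse RefSeq gene order (assembly GRCm38.p6), with 0 other protein-coding genes between them.

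None of the 7 member genes that could be tested passed the test between duct and basal cells. Hbegf was bright in both groups, with log2 differences of 0.11 and 0.65 on its 2 probe sets. The mean of Erbb2 was 1.99-fold lower and that of Erbb3 1.40-fold or 2.02-fold higher in duct cells, depending on the probe set, neither past the test over all genes. With limma and an adjusted p under 0.05, 0 of 7 members were higher and 0 were lower, against 0.973% of all 12536 genes tested (0.838% higher and 0.136% lower). At an unadjusted p below 0.05, 0 members were higher and 1, Erbb2, was lower, against 7.91% and 10.6% of all genes. Duct and basal arrays did not overlap for Erbb2 and Erbb3, that is for 2 of the 7, against 39.1% of all genes tested. The deposited values are linear array intensities in arbitrary units. A positive fold change means higher in duct cells; it is a difference of mean log2(intensity + 16), a scale on which changes of dim genes come out too small. Each gene was stood for by its most intense probe set, and levels of different genes are not compared, since probe sets differ in how brightly they bind.

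Among the arrays, duct replicate 1 stood apart, with a median probe set at 92.3, where the remaining 4 had theirs at 147 to 153. The brightest of 27 Bacillus control probe sets, for transcripts that mouse cells lack, lay at 39.5 to 86.5 on the 5 arrays and is used here as a measure of background. Of 8 airway basal markers, 4 had positive and 4 negative fold changes, and 1 (Krt14) was called higher in duct cells. Ngfr, named after its value was seen, read 1791 and 1820 on the basal and 406, 754 and 466 on the duct arrays. Its log2 fold change was -1.76 (limma adjusted p = 0.0786). The summed level of the 8 was 80496 to 89173 on the basal and 103445 to 117329 on the duct arrays. Both sorts carried the list as a whole, with single markers differing in either direction. The 12 markers of stratified squamous epithelium had summed levels of 10672 to 13140 on basal and 106103 to 141226 on duct arrays. Of the 12, 11 were called higher, against 0.838% of all genes tested. The list was chosen with earlier results of these data known, so this count is no independent support. Krtdap, Sprr1b and Lgals7 were under the Bacillus level on both basal arrays and passed the filter through their duct levels. Calls depended on single arrays: over all genes 105 were called higher, and 46, 24 and 1 without duct replicate 1, 2 or 3. Leukocyte markers summed to 836 and 1460 on the basal arrays and to 969 to 1961 on the duct arrays. Cd52, Coro1a and Cd3e were at 67.2 or less and Ptprc at 254 or more on all 5. Laptm5 read 78.0 and 372 on the basal and 338, 958 and 296 on the duct arrays, with overlap. Its log2 fold change was 1.32 (limma adjusted p = 0.412). Of the 4 leukocyte markers tested, 3 had positive and 1 a negative fold change. Of 7 thyroid markers 4 were tested (Tg, Slc5a5, Pax8 and Iyd), and all 4 had positive fold changes. They were dim on the basal arrays, and the filter used the mean of all 5 arrays. They could thus pass it through their duct levels, so their count is no support. Of those left out as dim, Tshr read 79.8 and 4.66 on the basal and 61.2, 55.8 and 223 on the duct arrays. Nkx2-1 read 125 and 116 on the basal, and 59.5, 7.13 and 199 on the duct arrays. The list summed to 387 and 438 on the basal and to 9465 to 21777 on the duct arrays. Most of that came from Tg, the gene of thyroglobulin, which was called higher (log2 fold change 8.35, limma adjusted p = 0.00595; 0.0613, 0.0535 and 0.0710 without basal replicate 1, basal replicate 2 or duct replicate 3). Fibroblast markers summed to 3791 and 4714 on the basal and 1804 to 4247 on the duct arrays, mostly from Dcn. Club cell markers summed to 95076 and 153688 on the basal and 86201 to 106406 on the duct arrays. Those of gland serous and mucous cells summed to 59630 and 81921, and to 71916 to 101324. Of the club markers, named after their values were seen, Scgb1a1 differed between basal replicates 1 and 2, at 9934 and 32690, and Scgb3a2 did not, at 32282 and 32688. The part of these markers in the values below was not tested, and in such sorted bulk samples fewer cells of a type and less RNA per cell cannot be told apart. The number of arrays limits the precision.

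Of the ligands, Hbegf, the heparin-binding member of the family, was measured well above background on every array. Its standing probe set read 6109.7 and 4295 on the basal side, compared with 5601, 5588 and 5415 on the duct side. The duct arrays lay close together and between the basal ones, so the groups overlapped. The log2 fold change was 0.11 (SE 0.26, limma adjusted p = 0.849), with a 95% interval from -0.53 to 0.75. Its second probe set, of identifier 1418350_at, read 5083 and 2588 in basal cells, against 6365, 5526 and 5281 in duct cells. There all duct arrays lay above both basal arrays, at a log2 difference of 0.65 (SE 0.36, limma adjusted p over probe sets = 0.458). On both probe sets basal replicate 2 was the lowest array. The sign for the standing probe set turned with quantile normalization, to -0.03, and without basal replicate 2, to -0.14; without basal replicate 1 it was 0.36, and 0.38 with the mean of the 2 probe sets.

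Tgfa, a ligand made by many epithelia, read 432 and 283 in the basal pools, against 194, 393 and 171 in the duct pools. Duct replicate 2 lay within the basal range and the other duct arrays below it. The log2 fold change was -0.54 (SE 0.42, limma adjusted p = 0.545), and its 95% interval ran from -1.58 to 0.51. It was -0.88 without duct replicate 2 (limma adjusted p = 0.295), -0.83 without basal replicate 2, -0.32 without duct replicate 3, -0.25 without basal replicate 1, and -0.07 with the mean of its probe sets. The probe set 1450421_at pointed the other way, at 0.26, with all 3 duct arrays and 1 of 2 basal arrays above their brightest Bacillus control. The remaining probe set, 1421942_s_at, was above that level on 1 of the 5 arrays and was too dim to be tested.

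The clustered ligand genes Epgn, Btc and Ereg were all close to background. Epgn, the gene of epigen, read 181 and 58.3 on the basal side, compared with 154, 117 and 169 on the duct side. Its basal arrays were the highest and the lowest of the 5, and the second of them was under its Bacillus level. The log2 fold change was 0.41 (SE 0.46, limma adjusted p = 0.673; 95% interval -0.72 to 1.54), and it was -0.29 without basal replicate 2 and 1.12 without basal replicate 1. Btc, the gene of betacellulin, read 63.6 and 129.8 in basal cells, against 94.9, 176 and 165 in duct cells. Its log2 fold change was 0.54 (SE 0.40, limma adjusted p = 0.515; 95% interval -0.44 to 1.52), while its other probe set, 1435541_at, was at -0.30 and had its highest value, 253, on basal replicate 2. Without basal replicate 1 the fold change of Btc was 0.10, without basal replicate 2 it was 0.98, and with the mean of both probe sets 0.12. Ereg, the gene of epiregulin, read 95.7 and 50.2 in the basal pools, against 87.2, 22.9 and 154 in the duct pools. It was left out by the filter on dim probe sets, and 1 of 2 basal and 2 of 3 duct arrays were above their Bacillus level. These probe sets lie near background, and the intervals of Epgn and Btc both reach beyond 1.5 on the log2 scale. That of the brighter Tgfa was also wide, reaching -1.58. Neither a difference nor its absence was measurable for these genes.

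**Figure D1:**
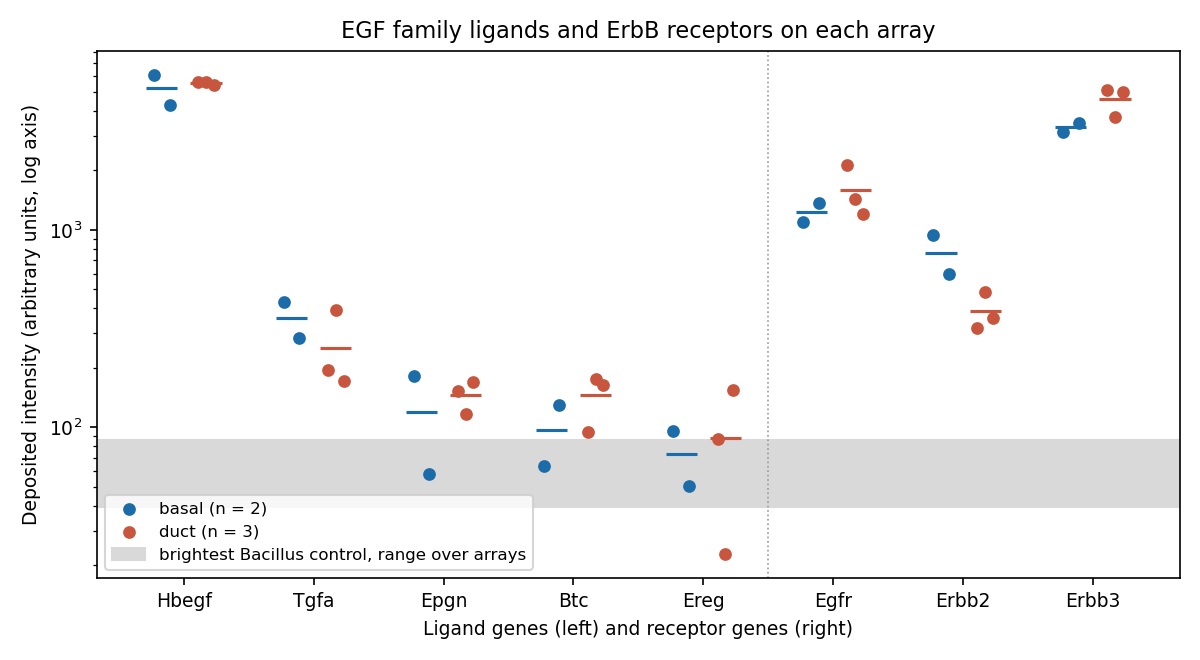
Deposited intensity (arbitrary units, log axis) of 8 genes on each array; points are arrays, blue for basal (n = 2) and red for duct (n = 3), short bars are group means, and the grey band is the range over arrays of the brightest Bacillus control, 39.5 to 86.5. Groups do not overlap for Erbb2 and Erbb3; the points of Epgn, Btc and Ereg lie closest to the band, and heights of different genes are not comparable.

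Egfr, the receptor of all these ligands, had 7 probe sets, more than any other member. The most intense, 1424932_at, read 1102 and 1368 on the basal side, compared with 2122, 1433 and 1198 on the duct side. Duct replicate 1 was the highest and the other duct arrays lay near the basal ones, so the groups overlapped. The log2 fold change was 0.32 (SE 0.33, limma adjusted p = 0.638), with a 95% interval from -0.48 to 1.13. Without duct replicate 1 it was 0.09, without basal replicate 1 0.17 and without duct replicate 3 0.50. Of the 5 Egfr probe sets bright enough to be tested, 4 had a positive and 1 a negative log2 difference. The negative one, 1435888_at, read 637 and 672 in basal cells, against 478, 642 and 399 in duct cells, at -0.39 (SE 0.31, limma adjusted p over probe sets = 0.598). Its lowest array was duct replicate 3, and duct replicate 2 lay within the basal range. On 1451530_at the duct arrays themselves spread from 439 to 1040.2, around basal values of 724 and 541. The probe set with the largest log2 difference, 1454313_at at 1.10, was above its Bacillus level on 0 of 2 basal and 1 of 3 duct arrays and was too dim to be tested.

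Erbb2, the receptor that partners the others, read 940.1 and 596 in the basal pools, against 318, 483 and 358 in the duct pools. Every duct array lay below both basal arrays. The means were 768 ± 243 (SD, n = 2) and 386 ± 86.0 (SD, n = 3), a log2 fold change of -0.95 (SE 0.32; 95% interval -1.74 to -0.15). Over all genes this did not pass, with a limma adjusted p of 0.212 (unadjusted 0.0271), and 16.6% of the genes tested had a larger absolute log2 fold change. The gene had 1 probe set, so no other measured it on these arrays. Leaving out basal replicate 1, the highest array, brought it to -0.63 (limma adjusted p = 0.597), and leaving out basal replicate 2 to -1.27 (0.286). Its direction was the same in all 17 alternatives, and its adjusted p there ran from 0.132 to 0.597.

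Erbb3, the kinase-poor receptor of neuregulins, had higher readings in duct cells on both of its probe sets. The brighter, 1434606_at, read 3139 and 3483 on the basal side, compared with 5124, 3746 and 4997 on the duct side. All 3 duct arrays were above both basal arrays, duct replicate 2 by the smallest margin. The means were 3311 ± 243 (SD, n = 2) and 4622 ± 762 (SD, n = 3), and the log2 fold change was 0.47 (SE 0.26, limma adjusted p = 0.397; 95% interval -0.18 to 1.11). On 1452482_at the arrays read 494 and 619.6 in basal and 1286, 1015 and 1079.8 in duct cells, again without overlap. That log2 difference was 1.00 (SE 0.28), with an unadjusted p of 0.0117 and a limma adjusted p over the 27022 probe sets of 0.205, where 0.233% of probe sets were called. With the mean of the 2 probe sets the gene was at 0.73 (limma adjusted p = 0.208). In all 17 alternatives the direction was the same.

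**Figure D2:**
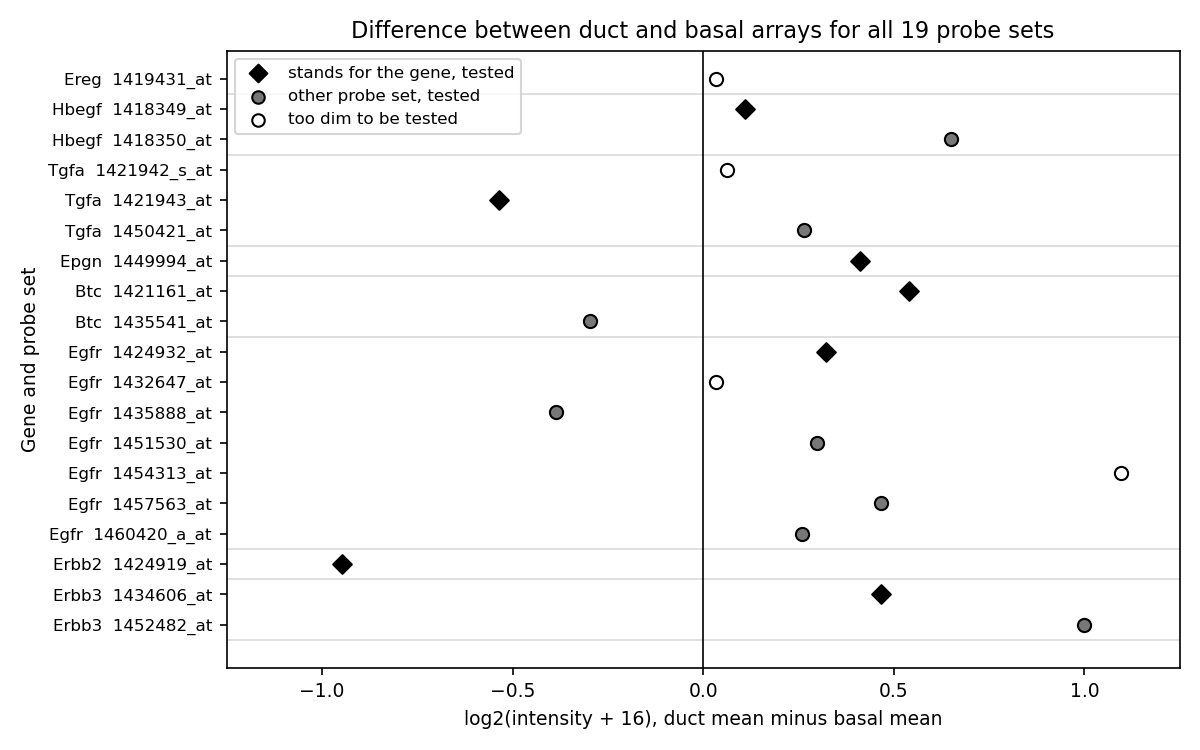
Difference between the duct and basal means on the log2(intensity + 16) scale for the 19 probe sets of 8 genes; diamonds stand for the gene, grey circles are the other tested probe sets and open circles were too dim to be tested. Probe sets of Tgfa, Btc and Egfr lie on both sides of 0, both of Erbb3 lie to the right, and that of Erbb2 lies farthest to the left, at -0.95.

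Erbb2 and Erbb3 had fold changes of opposite sign. The genes whose centred log2 values over the 5 arrays were nearest to those of Erbb2 were Unc5a, Krt33b and Irf2bpl, at distances of 0.06, 0.16 and 0.18. For Erbb3 they were Atp6v1e1, Taf13 and Vcp, at 0.08, 0.09 and 0.11. These are likenesses over 5 arrays, with no test.

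Among the other ligands and the fourth receptor of the system none passed the test. Of Egf, Nrg1, Nrg2, Nrg3, Nrg4 and Erbb4, 3 were bright enough to be tested and 0 passed in limma, with 0 at unadjusted p below 0.05. Nrg1, a neuregulin ligand of Erbb3, read 21.5 and 88.3 on the basal side, compared with 175, 232 and 55.5 on the duct side, with overlap. Basal replicate 1 and duct replicate 3 were under their Bacillus levels, 59.7 and 61.9, and basal replicate 2 was just over its own, 86.5. The log2 fold change was 1.26 (SE 0.68, limma adjusted p = 0.380). This value was 0.53 without basal replicate 1 and 2.00 without basal replicate 2. Nrg2, another neuregulin gene and named after its values were seen, read 309 and 194 in the basal pools, against 109, 121 and 229 in the duct pools, and was above the Bacillus level on every array. Its groups overlapped and its log2 fold change was -0.70 (SE 0.40, limma adjusted p = 0.407), with -0.38 and -1.01 when basal replicate 1 or basal replicate 2 was left out. Nrg4 read 147 and 95.1 in basal cells, against 77.3, 155 and 321 in duct cells, at 0.38 (limma adjusted p = 0.757); without duct replicate 3 it was -0.09, without basal replicate 2 0.11, without basal replicate 1 0.66 and without duct replicate 1 0.84. The arrays of Erbb4, a further neuregulin receptor, read 28.3 and 34.9 in basal and 31.4, 35.2 and 114 in duct cells, and those of Egf 94.2 and 57.4, and 48.8, 155 and 36.2. Erbb4 was over the Bacillus level on duct replicate 3 alone, and Egf was under it on basal replicate 2 and duct replicate 3.

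Among 9 genes of ligand shedding 0 were called by limma in either direction. At unadjusted p below 0.05, 1 was higher and 0 were lower, against 7.91% and 10.6% of all genes. The median log2 fold change was -0.12, against -0.12 over all genes. Without duct replicate 3 these were 0.0038 and -0.13, and without basal replicate 2 they were -0.029 and -0.12. Adam17, a protease that releases ligands of this family, measured 1299 ± 236 (SD, n = 2) in basal and 1540.1 ± 165 (SD, n = 3) in duct cells. Its log2 fold change was 0.25 (SE 0.26, limma adjusted p = 0.645, 95% interval -0.38 to 0.88). Without basal replicate 1 it was 0.07 and without basal replicate 2 0.43. Its 3 probe sets did not point one way, and 1421859_at had its highest value, 3014, on duct replicate 1, against 1012 and 1072 on the other duct arrays. Timp3, an inhibitor of Adam17, read 3476 and 4008 in the basal pools, against 6038, 8643 and 5646 in the duct pools, all of them above the basal ones. Its log2 fold change was 0.83 (SE 0.29, unadjusted p = 0.0290, limma adjusted p = 0.216). Rhbdf2, which carries Adam17 to the cell surface, read 712 and 273 on the basal arrays, a range that holds all 3 duct values, and was at -0.39 (limma adjusted p = 0.687) at 0.28 without basal replicate 1 and at -1.05 without basal replicate 2.

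Of 26 adaptors and kinases that pass the signal on, 21 were tested and 0 were called by limma. At unadjusted p below 0.05, 2 were higher and 3 lower, against 7.91% and 10.6% of all genes. The median was -0.10, against -0.12 over all genes. That median was 0.016 without duct replicate 3, -0.037 without basal replicate 2, -0.052 when basal replicate 1 was left out, and 0.11 after median centring. All genes were then at -0.13, -0.12, -0.14 and 0.08. The others on that list were not analysed here. Grb2, the adaptor that links receptors to Ras, measured 443 ± 15.5 and 496 ± 183, at 0.08 (limma adjusted p = 0.929), a sign that turned without duct replicate 1 (-0.13) or duct replicate 2 (-0.032), and at 0.42 without duct replicate 3. Shc1, another adaptor, read 954 and 985 on the basal side, compared with 584, 405 and 660.0 on the duct side. The groups did not overlap and the log2 fold change was -0.83 (SE 0.29, limma adjusted p = 0.221), but its second probe set, 1422853_at, was at 0.38, and the mean of its probe sets at -0.23.

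Negative regulators of the pathway had values on both sides of 0, and none passed over all genes. Of 20 tested, 0 were called by limma, 2 were higher and 6 lower at unadjusted p below 0.05, against 7.91% and 10.6% of all genes, and the median log2 fold change was -0.47, against -0.12 over all genes. With probe sets averaged within genes the list was at -0.27 and all genes at -0.12, and without basal replicate 1 they were at -0.32 and -0.14. Centring each array on its median shifts both alike, to -0.26 and 0.08. Duct arrays lay above both basal arrays for 6 and below them for 8 of the 20, against 16.5% and 22.6% of all genes. Spry2, a feedback inhibitor of receptor kinase signalling, read 3921 and 4724 in basal cells, against 792, 1428 and 1220.2 in duct cells, at -1.93 (SE 0.33, limma adjusted p = 0.0691). Dusp6, the phosphatase that switches off ERK, read 7822 and 6803 in the basal pools, against 2652, 3270.4 and 2268 in the duct pools, at -1.43 (SE 0.27, limma adjusted p = 0.0786). The gap between the lowest basal and the highest duct array was 2492 units for Spry2 and 3533 units for Dusp6. Lrig1, a membrane protein that promotes loss of ErbB receptors and marks stem cells of several epithelia, read 6211 and 6239 on the basal side, compared with 2909, 2996 and 2409 on the duct side, at -1.17 (SE 0.24, limma adjusted p = 0.0915). Its other 2 probe sets were at -1.37 and -1.13. Also lower at unadjusted p below 0.05 were Spry1, Spred2 and Socs3, at -1.44, -0.87 and -1.30, which are named after their values were seen.

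Errfi1, an inhibitor that binds the Egfr kinase itself, had a positive value. It read 10895 and 11515 in basal cells, against 20222, 19369.5 and 17706 in duct cells, with no overlap. The log2 fold change was 0.77 (SE 0.23, limma adjusted p = 0.172), and its second probe set was at 1.06. Dusp5, another ERK phosphatase named after its value was seen, was at 1.08 (limma adjusted p = 0.134). The direction of Spry2, Dusp6, Lrig1 and Errfi1 was the same in all 17 alternatives. By limma they were called in 5, 3, 2 and 1 of these, with adjusted p values of up to 0.300, 0.342, 0.367 and 0.481, and none of the 4 was called with an array left out or with the replicate block.

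**Figure D3:**
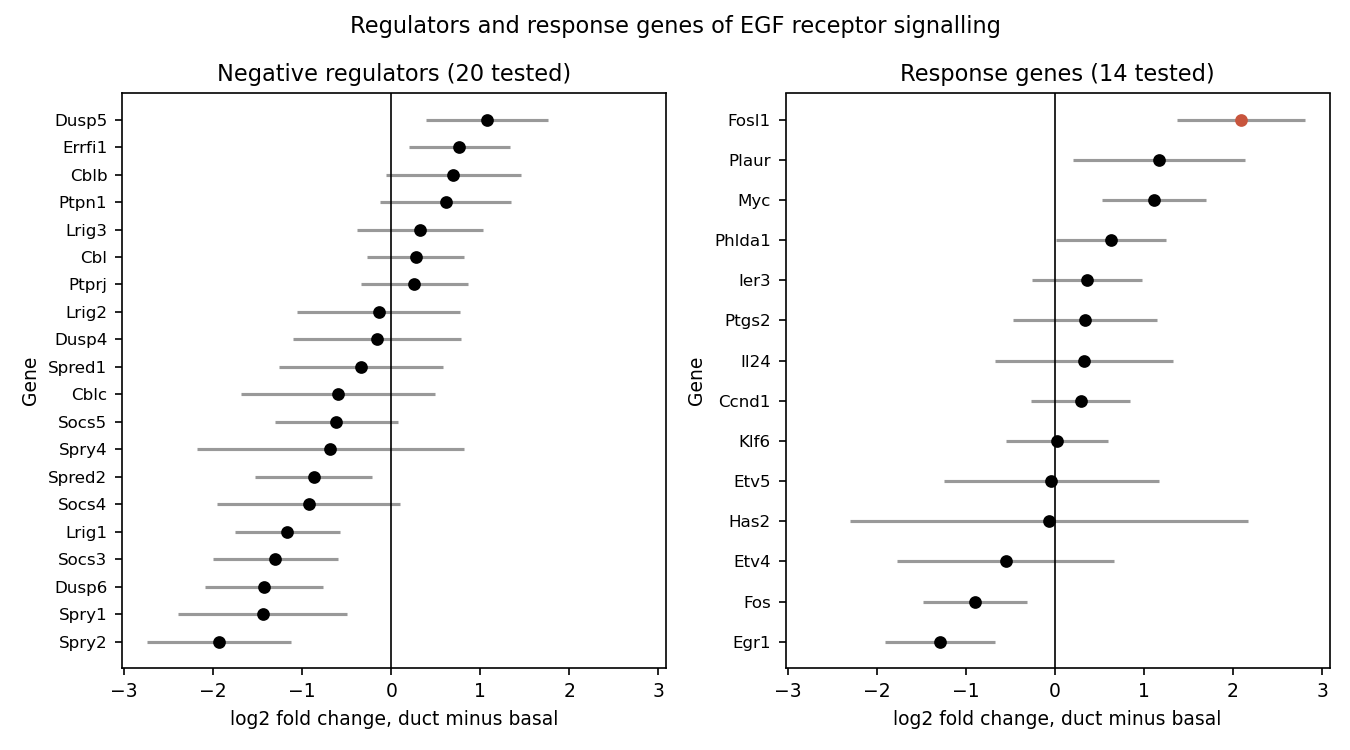
Log2 fold change of duct minus basal cells for 20 negative regulators and 14 response genes; points are limma estimates, bars are 95% intervals, and red marks an adjusted p under 0.05. Fosl1 at 2.09 is the only red point; Spry2 at -1.93 is the lowest.

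Among the response genes 1 was called higher in duct cells: Fosl1, an AP-1 transcription factor gene induced by sustained ERK activity. It read 1531 and 1054 in the basal pools, against 6570.2, 5149 and 4798 in the duct pools. The lowest duct array was 3266 units above the highest basal array, and the log2 fold change was 2.09 (SE 0.29, limma adjusted p = 0.0488). Its other probe set, 1417488_at, was at 2.74. No single array could be left out without losing the call (limma adjusted p = 0.101 to 0.209). It was also lost with no filter on dim probe sets (0.110), with a pseudocount of 1 (0.0613), with probe sets as the unit (0.0882) and with the replicate number as a block (0.295), while the fold change stayed between 1.82 and 2.41 in all 17 alternatives. Of 14 response genes tested, 9 had positive and 5 negative fold changes. By limma 1 was called higher and 0 lower, against 0.838% and 0.136% of all genes. At unadjusted p below 0.05, 4 were higher and 2 lower, against 7.91% and 10.6% of all genes. The median was 0.31, against -0.12 over all genes. It was 0.52 with median centring, 0.20 with quantile normalization and 0.17 without duct replicate 2, where all genes were at 0.08, -0.05 and -0.15.

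Egr1 and Fos, immediate early genes of that list, had negative fold changes. Other early response genes of the list, named after their values were seen, were positive: Myc was at 1.11 (limma adjusted p = 0.0983), Ier3 at 0.36 and Klf6 at 0.03, the last with a sign that turned in 5 of 17 alternatives. Egr1 read 23563 and 23339.5 on the basal side, compared with 8609, 11430.3 and 8915 on the duct side, at -1.29 (SE 0.25, limma adjusted p = 0.0844). Fos read 23541 and 22613 in basal cells, against 11162, 13845 and 12183 in duct cells, at -0.90 (SE 0.24, limma adjusted p = 0.138). Both were bright on every array, and neither passed over all genes. Such genes are also induced while tissue is dissociated, and the 2 groups were freed with different enzymes. The 13 dissociation response genes, which include both, summed to 180463 and 187362 on the basal and to 156046 to 166296 on the duct arrays. By limma 0 were called, with 2 higher and 3 lower at unadjusted p below 0.05, against 7.91% and 10.6% of all genes. Duct arrays lay above both basal arrays for 2, Hspa1a and Hspa1b, and below them for 6, against 16.5% and 22.6% of all genes. Besides Fos and Egr1 these 6 were Ier2, Fosb, Btg2 and Nr4a1, at -1.77, -0.44, -0.74 and -0.73, named after their values were seen. Without Fos and Egr1, an alternative chosen after seeing the data, the remaining 11 summed to 134511 and 140258 on the basal and to 136275 to 141021 on the duct arrays, which overlap. That sum mixes lower genes with Hspa1a and Hspa1b, which were at 0.91 and 1.02. The part of dissociation in the values of the ligands, regulators and response genes was not tested. Plaur, the urokinase receptor gene, measured 1530.3 ± 266 and 3625 ± 1413, at 1.17 (SE 0.39, limma adjusted p = 0.207). Phlda1, a gene of the pleckstrin homology-like family, measured 5629 ± 389 and 8776 ± 1238, at 0.63 (SE 0.25, limma adjusted p = 0.261). For both, all 3 duct arrays were above the basal arrays.

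**Figure D4:**
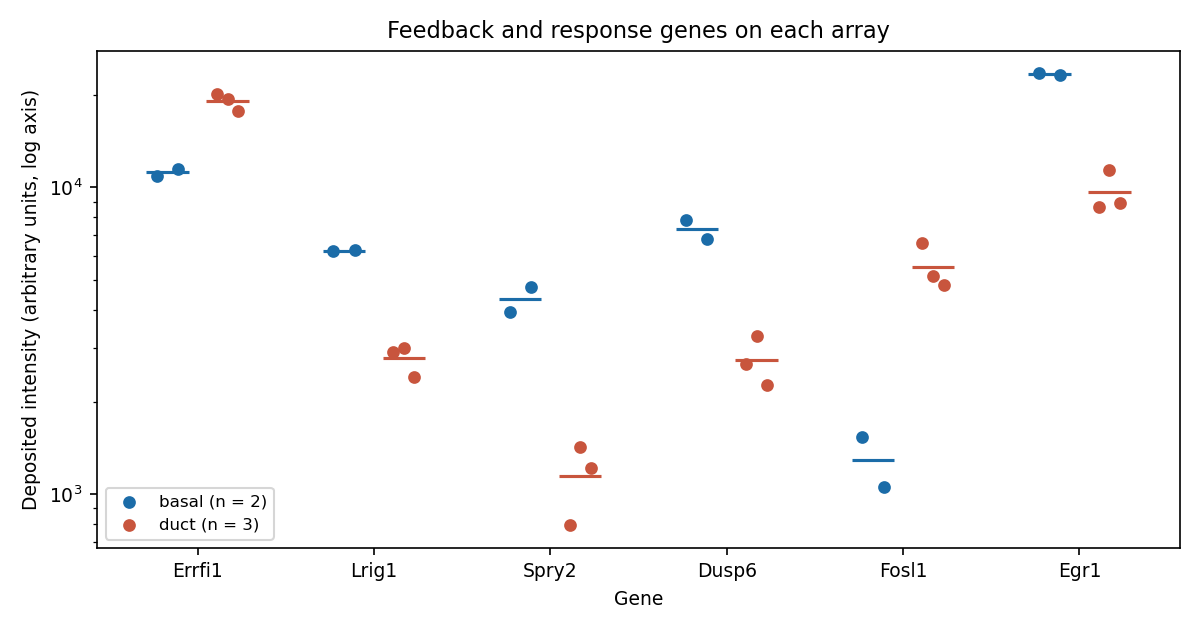
Deposited intensity (arbitrary units, log axis) of 4 negative regulators and 2 response genes on each array; blue points are basal (n = 2), red points duct (n = 3), short bars group means. The groups do not overlap for any of the 6 genes: Errfi1 and Fosl1 lie higher and Lrig1, Spry2, Dusp6 and Egr1 lower on the duct arrays.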

How the data were processed

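Intensities, on a linear scale, were taken as the authors deposited them. The mean of each array, trimmed by 2% at either end, was 500.0, so arrays had been scaled to it. How probes were summarised, how background was corrected and with which software is not given in the sources used here. Of 45101 probe sets 64 were controls, and 34945 had 1 gene symbol, 932 several and 9160 none in the platform annotation. The most intense probe set, by mean log2(intensity + 16), stood for each gene; the lowest 40% of probe sets were left out, which left 12536 genes. Duct was set against basal with limma 3.58.1 (R 4.3.3) and Benjamini-Hochberg adjustment over all genes; probe sets were also fitted as the unit. The table held 0 columns of other samples. The fit was tested on simulated data.

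Members, lists and tests were chosen with earlier results of these data known. Named were all members, any pathway gene past the threshold and fixed examples from each list; others are said to be named after their values were seen. Alternatives were quantile normalization, median centring, a pseudocount of 1 or 64, filters at 0 and 60%, the mean of probe sets, probe sets as the unit, no probe sets of the cross-hybridising kinds, array weights, an intensity trend with robust fit, a replicate block and each array left out. Figures were drawn with matplotlib 3.10.9.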

Additional observations from a re-analysis of the deposited data

How the results depend on the processing

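In all 17 alternatives 0 members were called by limma; at an unadjusted p under 0.05, up to 1 was higher and up to 2 were lower. The fold changes whose sign turned were those of Hbegf (-0.028 with quantile normalization, -0.14 without basal replicate 2), Epgn (-0.29 without basal replicate 2), Nrg4 (-0.089 without duct replicate 3 and with the replicate block), Rhbdf2 (0.28 without basal replicate 1), Klf6 (-0.096 with quantile normalization, -0.046 with the mean of probe sets, -0.026 with the replicate block) and Grb2 (-0.054 with the mean of probe sets, -0.13 and -0.032 without duct replicates 1 and 2). With 1 array left out they ran from -0.14 to 0.36, -0.29 to 1.12, -0.089 to 0.84, -1.05 to 0.28, -0.068 to 0.12 and -0.13 to 0.42. The cause was not tested.

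Over all genes, 105 were called higher and 17 lower. The number higher was 281 with median centring, 208 with a pseudocount of 64, 35 with no filter, 250 with the 60% filter, 565 with trend and robust fit and 58 with probe sets as the unit, and 0 to 46 with 1 array left out. The number lower was 28 with quantile normalization, 57, 95, 1, 158 and 377 under the first 5 of these settings, 49 with the mean of probe sets, 40 with array weights, 5 with probe sets as the unit and 0 to 2 with 1 array left out. Among pathway genes, 1 was higher (Fosl1) and 0 lower. The number higher was 0 with a pseudocount of 1, no filter, probe sets as the unit or any array left out, 2 with the 60% filter and 7 with trend and robust fit. The number lower was 1 with median centring or the mean of probe sets, 2 with a pseudocount of 64, 5 with the 60% filter and 9 with trend and robust fit.

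The replicate numbers mark separate pools and do not pair the samples; deviations of same-numbered arrays correlated at -0.08 and -0.04 across genes. With the replicate number as a block 0 genes were higher and 0 lower (650 and 958 at an unadjusted p under 0.05), and 0 pathway genes were higher; the block leaves 1 residual degree of freedom, and duct replicate 3 then adds nothing to the fold change. The median log2 fold change of all genes was -0.12, 0.08 with median centring and -0.05 with quantile normalization. Signal limits Epgn, Btc and Ereg, whose probe sets were at or near the Bacillus controls.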
